A study of Mus musculus with 23 samples.

Results

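This section describes 10 genes of the MHC class I antigen presentation pathway in mouse spleen B cells, chosen by name: B2m, H2-K1, H2-D1, Tap1, Tap2, Tapbp, Psmb8, Psmb9, Psmb10 and Nlrc5. The rule took every listed symbol, so all 10 were found among 11548 genes listed for naive cells and 10574 listed for cultured cells, and all 10 passed the filter on low values in each. The genes and the lists set beside them were chosen with earlier results of these data known. Polyadenylated RNA of sorted cells was sequenced in 23 libraries of 8 groups. WT stands for cells without a guide RNA, taken from the Thy1.1-negative gate. KO stands for cells with sgRNA 1 or sgRNA 2 against Irf8, taken from the Thy1.1-positive gate. Irf8 encodes an interferon regulatory factor, a DNA-binding protein of immune cells. Naive B cells (CD11b-, F4/80-, Thy1.2- and B220+, untreated) gave 3 WT and 3 KO libraries in each of 2 arms, 1 arm for each guide. The cultured cells came from naive B cells kept for 72 hours with 20 ng/ml of IL-2, 5 ng/ml of IL-5 and LPS, whose label gives 20 mg/ml, and all cultured KO cells carried sgRNA 1. They were activated B cells (GL7+ and CD138-, 3 WT and 3 KO) and plasmablasts (B220+ or B220 mid and CD138+, 2 WT and 3 KO), the latter labelled as plasma cells. A control group with a guide to some other gene is not among the 8, and the labels give no strain, age or way of guide delivery.

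MHC class I molecules carry short peptides from inside the cell to its surface, where CD8 T cells read them. H2-K1 and H2-D1 encode classical heavy chains, and B2m encodes beta-2 microglobulin, the light chain that every classical heavy chain needs. The peptides are cut by the proteasome, in which Psmb8, Psmb9 and Psmb10 are the interferon-inducible catalytic subunits that replace Psmb5, Psmb6 and Psmb7 to form the immunoproteasome. Tap1 and Tap2 form the pump that moves peptides into the endoplasmic reticulum, where tapasin, the product of Tapbp, holds the empty heavy chain beside the pump during loading. Nlrc5 encodes a transactivator of class I promoters.

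The target and the sort marker were looked at first. Irf8 ranged from 79.8 to 98.0 RPKM (reads scaled by gene length and by the library's total) in the 6 naive WT libraries and from 47.6 to 77.7 in the 6 naive KO libraries, so its transcript remained in the KO cells. It fell with guide 2, by 0.77 on the log2 scale (limma adjusted p = 0.0427 with all libraries), and with guide 1, the guide of all cultured KO cells, its difference of -0.46 was not called (limma adjusted p = 0.0703, and 0.0815 for -0.35 without naive KO guide 1 A). In activated libraries 1 and 2 Irf8 was 108 and 93.6 RPKM in WT and 69.2 and 68.1 in KO cells, without overlap. Plasmablasts overlapped, at 24.6 and 17.6 RPKM in WT and 17.5, 21.4 and 24.2 in KO libraries. Irf8 was not called in cultured KO cells at either stage, with limma adjusted p of 1.0 and 0.994 with all libraries and 0.126 and 0.992 without the 4 libraries described next. Thy1, part of the sorted marker, was 8.88 to 22.1 RPKM in naive KO libraries. It was 0.0 to 0.052 RPKM in naive WT libraries except WT A of the guide 1 arm, at 4.93. That library, with Irf8 at 95.8 RPKM, was kept. In the third pair of activated libraries Thy1 went against the labels, at 25.7 RPKM in the library labelled WT 3 and 0.093 in the library labelled KO 3. Irf8 was 60.0 RPKM in the former and 92.4 in the latter. Plasmablast KO 3 held about 51000 estimated reads, against 4300000 to 26900000 in the other cultured and 14500000 to 22200000 in the naive libraries, and its median correlation with the other libraries was 0.477. Naive KO guide 1 A listed 1405 genes at 0 and had a median correlation of 0.87. These 4 libraries are called doubted below and the others kept. Tests were made with all libraries and without the doubted ones, while group means over libraries and correlations use the kept ones unless stated. Summed RPKM of 6 B cell markers was 2758 to 3504 in naive libraries, 1694 to 2379 in activated ones and 628 to 1571 in plasmablasts. The plasma cell markers summed to 53.5 to 140.0, 708 to 1938 and 1621 to 3721 RPKM in the same order. No neutrophil or platelet marker was listed for either kind of cell, and of 8 T cell markers 0 were listed for naive cells and 1 (Cd28) for cultured cells. In naive cells 8 of 12 macrophage and monocyte markers were listed and summed to 5.36 to 37.9 RPKM. Of 6 natural killer markers 5 were listed there, at 0.93 to 14.5 RPKM in WT and 2.30 to 5.78 in KO libraries. Of 6 dendritic cell markers 4 were listed there (0.05 to 3.14 RPKM), and of 5 erythroid markers 2 (2.54 to 21.7). In culture 1 of each was listed, at up to 8.78 (natural killer), 37.9 (dendritic, Flt3) and 12.1 RPKM (erythroid). Of 12 macrophage and monocyte markers, 3 were listed in the cultured table, and they summed to 10.8 to 25.9 RPKM in activated and 22.4 to 61.3 in plasmablast libraries, with Csf1r, Lyz2, Adgre1 and C1qa not listed there. Their part in the differences between these stages was not tested. Values come from bulk RNA, so a change in RNA per cell cannot be told apart from a change in the share of cells that hold it.

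Of the 10 genes, 7 lie on chromosome 17 in GRCm38, in or near the MHC. They are Tapbp (chr17:33919478-33929290), H2-K1 (chr17:33996012-34000619), Psmb9 (chr17:34182030-34187330), Tap1 (chr17:34187556-34197225), Psmb8 (chr17:34198195-34201454), Tap2 (chr17:34204479-34216321) and H2-D1 (chr17:35263094-35267497). B2m is on chromosome 2 (chr2:122147687-122153082), and Psmb10 (chr8:105935728-105938392) and Nlrc5 (chr8:94434335-94527272) are on chromosome 8. Promoter sequences from 250 bases before to 50 bases after the start were found for 8 of the 10 genes in RefSeq on GRCm38.p6, and none for Tap2 and Nlrc5. The 4 genes whose values moved together in culture and Tap1, whose values did not move with them, are shown 5′ to 3′ on the strand of the gene, with matches to AANNGAAA, the core of an interferon regulatory factor element, in capitals (both strands searched). They are B2m (chr2:122147437-122147736, plus strand), H2-K1 (chr17:34000298-34000597, minus strand, 1 of 2 annotated starts), H2-D1 (chr17:35262844-35263143, plus strand), Tapbp (chr17:33919228-33919527, plus strand) and Tap1 (chr17:34187306-34187605, plus strand).
B2m: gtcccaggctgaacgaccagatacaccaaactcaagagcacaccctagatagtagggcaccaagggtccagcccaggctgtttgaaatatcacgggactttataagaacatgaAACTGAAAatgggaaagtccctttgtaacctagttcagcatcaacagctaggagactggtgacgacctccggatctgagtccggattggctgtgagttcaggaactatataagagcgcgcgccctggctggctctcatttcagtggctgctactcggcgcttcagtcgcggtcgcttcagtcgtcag
H2-K1: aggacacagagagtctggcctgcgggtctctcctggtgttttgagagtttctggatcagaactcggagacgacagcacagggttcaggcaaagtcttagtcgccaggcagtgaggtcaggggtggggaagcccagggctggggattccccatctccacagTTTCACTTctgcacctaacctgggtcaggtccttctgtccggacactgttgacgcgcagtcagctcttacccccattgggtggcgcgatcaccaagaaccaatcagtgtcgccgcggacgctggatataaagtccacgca
H2-D1: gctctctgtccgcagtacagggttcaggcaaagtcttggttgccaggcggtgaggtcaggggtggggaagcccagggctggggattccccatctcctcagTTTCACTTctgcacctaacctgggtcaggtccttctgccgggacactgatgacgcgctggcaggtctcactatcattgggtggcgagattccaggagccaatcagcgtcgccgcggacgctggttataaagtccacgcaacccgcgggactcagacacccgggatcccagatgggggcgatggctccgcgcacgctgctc
Tapbp: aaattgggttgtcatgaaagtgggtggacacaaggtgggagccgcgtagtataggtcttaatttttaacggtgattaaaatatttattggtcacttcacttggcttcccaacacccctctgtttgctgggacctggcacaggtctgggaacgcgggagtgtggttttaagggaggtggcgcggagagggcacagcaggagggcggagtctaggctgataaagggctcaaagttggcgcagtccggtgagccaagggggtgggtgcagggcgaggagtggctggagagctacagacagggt
Tap1: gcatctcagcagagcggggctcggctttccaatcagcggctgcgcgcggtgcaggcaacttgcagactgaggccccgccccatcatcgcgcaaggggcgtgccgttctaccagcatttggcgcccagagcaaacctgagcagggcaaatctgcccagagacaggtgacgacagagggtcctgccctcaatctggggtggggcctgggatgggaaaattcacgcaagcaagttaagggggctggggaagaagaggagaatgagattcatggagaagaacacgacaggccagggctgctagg

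B2m, H2-K1 and H2-D1 each held 1 match to AANNGAAA, and the other 5 genes with a sequence held none, while 23.9% of all 32851 promoters of this length held 1 or more. The match of B2m was also the only one among the 8 to fit the longer interferon-stimulated response element GAAANNGAAA, which 3.4% of all promoters held and which contains the shorter motif. No member held the ETS-IRF composite GGAANNGAAA (2.7% of promoters), which contains it too. The heavy chain promoters resembled each other. With H2-D1 moved by 60 bases, 176 of 240 bases were identical to H2-K1 (73.3%), with a longest shared run of 47 bases. Psmb9 and Tap1 start 226 bases apart and point away from each other, so 275 bases of their promoter windows are the same DNA on opposite strands. These matches describe letters and are not binding sites.

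The 3 genes of the surface molecule were the highest of the 10 in every group. In naive WT cells B2m stood at 1391 ± 88.2 RPKM (SD, n = 6), H2-D1 at 973 ± 61.8 and H2-K1 at 230.5 ± 19.03. Tapbp followed at 110.0 ± 4.25, Psmb8 at 81.2 ± 6.25, Tap2 at 65.9 ± 2.28, Tap1 at 45.6 ± 1.82, Psmb9 at 35.3 ± 2.02 and Psmb10 at 32.9 ± 3.97 RPKM. Psmb9 and Psmb10 overlapped, and the regulator Nlrc5 was lowest at 13.4 ± 3.31 RPKM. Among the 10178 genes common to both tables, B2m and H2-D1 lay at or above the percentile 99.9 in every group, and Nlrc5 between 54.3 and 81.7 over the kept libraries. The order between genes rests on the length each value was divided by. The deposited length of H2-K1 is 10612 bases, more than the 4608 bases the gene spans, and the lengths of Psmb8, Psmb9, Psmb10 and Tap1 also exceed their spans. Rescaled to the length of the principal transcript, H2-K1 (1305 ± 108) and H2-D1 (1346 ± 85.4) overlapped in naive WT cells and Psmb9 (183 ± 10.4) was above Tap1 (137 ± 5.45). A comparison of 1 gene between libraries is untouched by this.

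**Figure D1:**
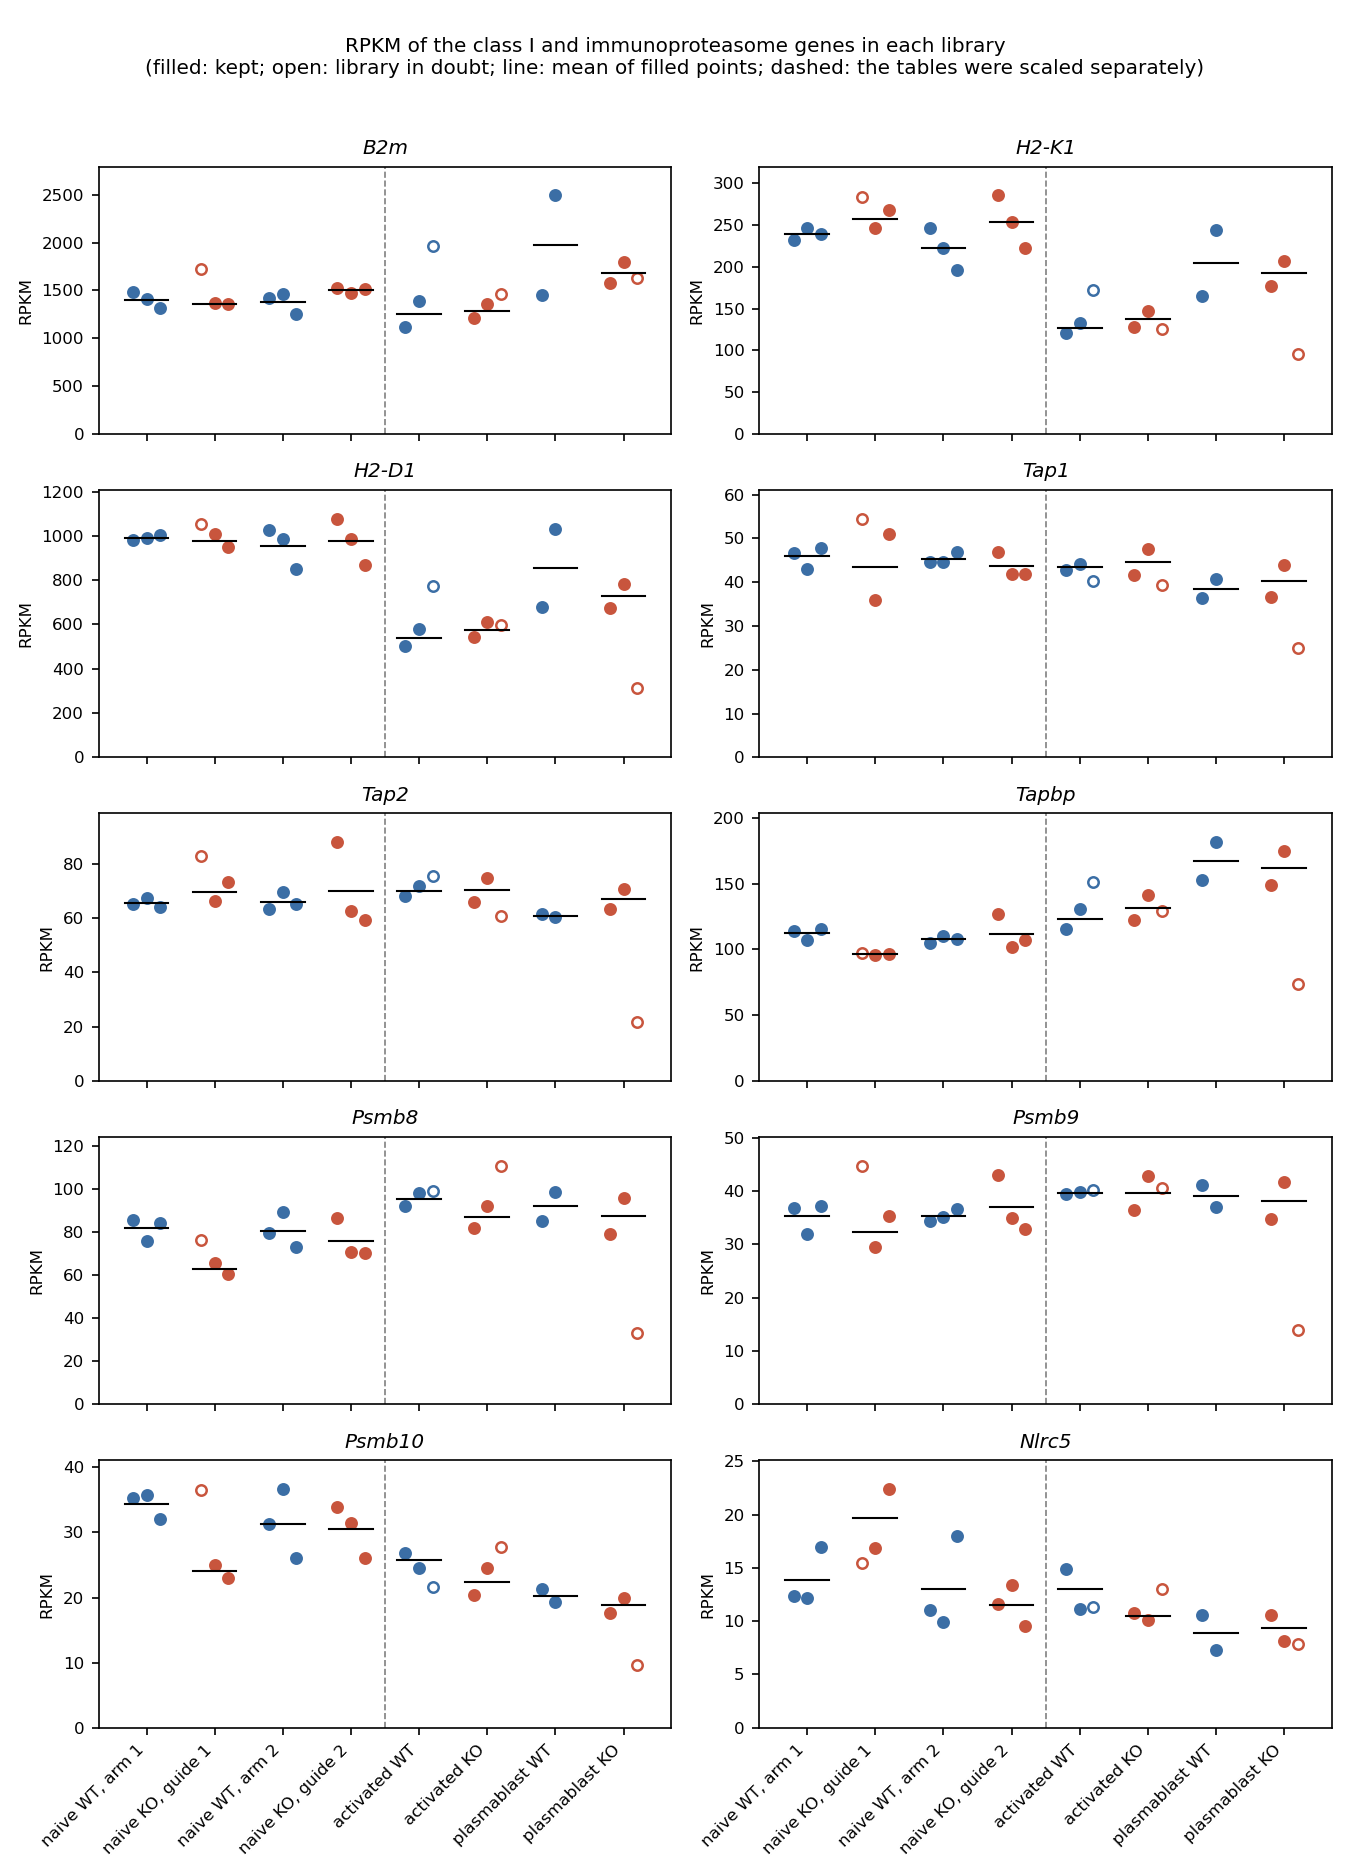
RPKM of each of the 10 genes (vertical axes, linear from 0) in every library of the 8 groups, WT in blue and KO in red. Filled points are kept libraries, open points the 4 doubted ones, black lines the means of the filled points, and the dashed line divides 2 tables that were scaled separately. H2-K1 and H2-D1 are lowest in the activated groups, and B2m, H2-K1, H2-D1 and Tapbp are higher in the kept plasmablast libraries than in the kept activated ones.

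Set side by side, the heavy chains were lower in activated than in naive cells, while B2m and Tapbp were closer. H2-K1 was 121 and 133 RPKM in the kept activated WT libraries, below its range of 196 to 247 in naive WT cells. H2-D1 was 501 and 579 RPKM against 851 to 1025. For B2m the activated WT values of 1119 and 1386 RPKM reached into the naive WT range of 1253 to 1484. No test was made between the tables. The log2 ratio of H2-K1 to H2-D1 within a library differed by less than its spread in WT cells, at -2.08 ± 0.05 (SD, n = 6) in naive WT, -2.09 ± 0.05 (n = 2) in activated WT and -2.05 ± 0.03 (n = 2) in WT plasmablasts. In KO cells it was -1.94 ± 0.08 (n = 5) in naive cells, -2.07 ± 0.02 (n = 2) in activated cells and -1.92 ± 0.00 (n = 2) in plasmablasts. Naive KO cells overlapped WT with guide 1. With guide 2 they did not, at -1.97 to -1.92 against -2.15 to -2.05 in the WT cells of that arm. KO plasmablasts did not overlap WT either. The ratio was not tested.

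The immunoproteasome subunits are best read against the constitutive subunit each replaces, as a ratio within a library that does not depend on how a table was scaled. All 3 ratios were lower in cultured than in naive cells. The log2 ratio of Psmb8 to Psmb5 was 0.45 ± 0.15 (SD, n = 6) in naive WT cells, -0.34 ± 0.02 (n = 2) in activated WT cells and -0.69 ± 0.17 (n = 2) in WT plasmablasts. For Psmb9 to Psmb6 the values were -0.42 ± 0.16, -0.95 ± 0.10 and -1.33 ± 0.15 in the same order. Psmb10 to Psmb7 had the widest gap, at 1.31 ± 0.17 in naive WT, -0.15 ± 0.15 in activated WT and -0.30 ± 0.01 in WT plasmablasts. For each pair the naive and the cultured ranges did not overlap, doubted libraries included.

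Set side by side without a test, the constitutive genes differed more between naive and activated cells than the inducible ones. Psmb5 was 59.8 ± 7.04 RPKM in naive WT (n = 6) and 120.2 ± 3.47 in activated WT cells (n = 2), Psmb6 47.3 ± 3.39 and 76.6 ± 5.79, and Psmb7 13.2 ± 0.64 and 28.6 ± 1.28. The inducible partners were closer, with Psmb8 at 81.2 ± 6.25 and 95.2 ± 4.32 RPKM and Psmb9 at 35.3 ± 2.02 and 39.6 ± 0.23. Only Psmb10, of the 3, was lower in activated cells, at 32.9 ± 3.97 and 25.7 ± 1.59 RPKM. In KO cells the ratio of Psmb8 to Psmb5 was 0.40 ± 0.06 in naive (n = 5), -0.47 ± 0.09 in activated (n = 2) and -0.65 ± 0.10 in plasmablast cells (n = 2). The absolute size of a ratio depends on the deposited lengths, and its shift between groups does not.

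**Figure D2:**
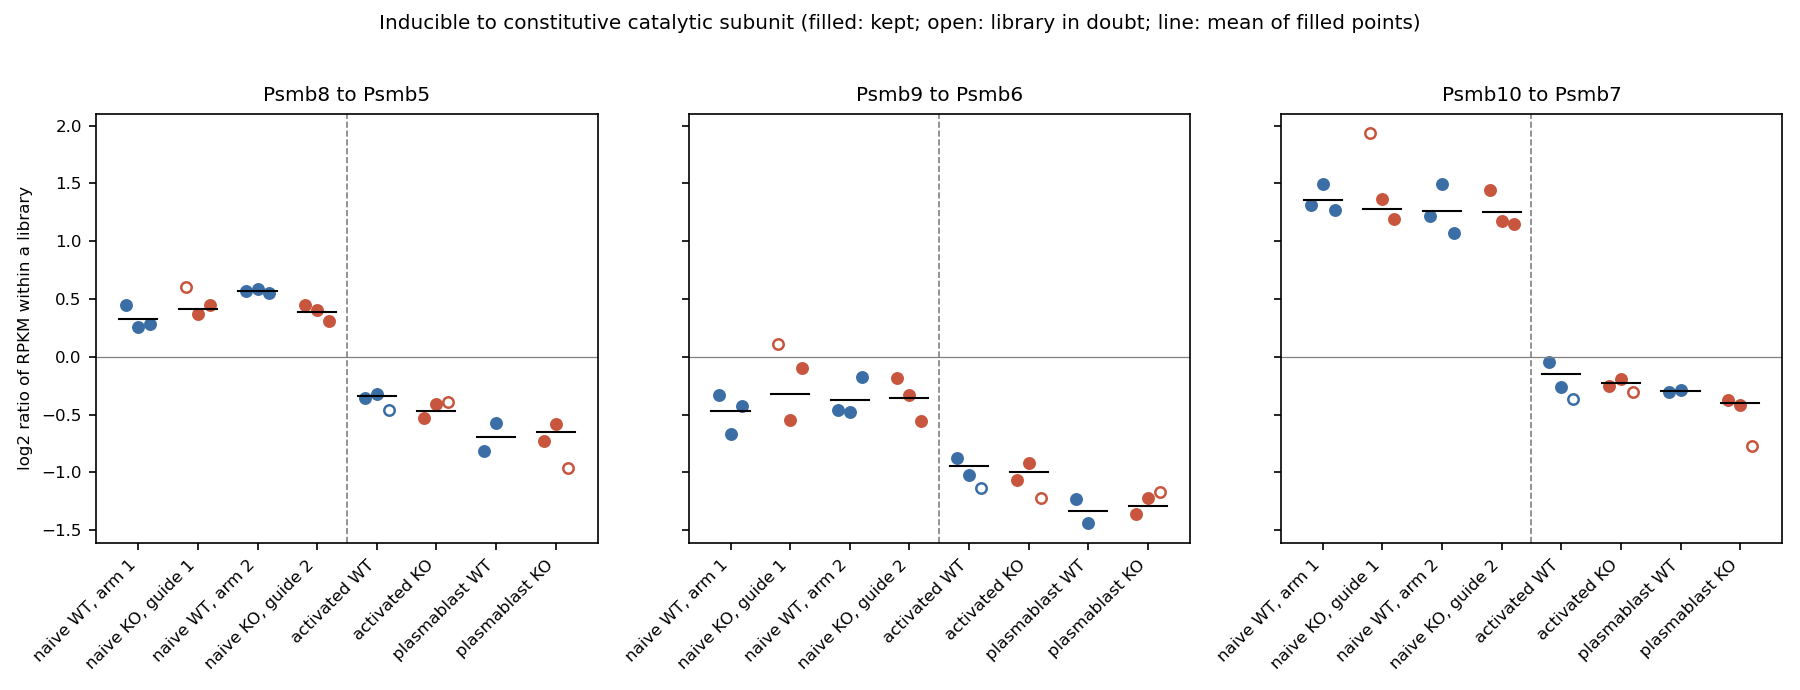
Log2 ratio of RPKM of each inducible to its constitutive catalytic subunit (vertical axis) in each library of the 8 groups, with WT in blue, KO in red, doubted libraries open and the mean of the filled points as a line. All naive points lie above all cultured points in each panel, by most for Psmb10 to Psmb7.

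The calls in the step from activated B cells to plasmablasts depended on the doubted libraries. With all libraries in limma's test on log2(RPKM + 1), none of the 10 was called in WT or KO cells at an adjusted p under 0.05, where 1.76% of all genes were called in WT and 3.44% in KO cells. No member had an unadjusted p under 0.05 in WT cells, and 1 had in KO cells (Psmb10, -0.64, -1.22 to -0.06, limma adjusted p = 0.201). In that fit the WT differences were 0.52 for H2-K1, 0.46 for H2-D1, 0.40 for B2m and 0.34 for Tapbp, and ran from -0.45 (Nlrc5) to -0.03 (Psmb9) for the other 6 members. Without the doubted libraries 5 members were called in WT cells. H2-K1, H2-D1 and Tapbp rose and Psmb10 and Nlrc5 fell, that is 3 of 10 higher and 2 of 10 lower, where 15.5% of all genes were called higher and 30.7% lower. The members' median difference was -0.04 on the log2 scale, and that of all genes -0.16.

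H2-K1 was 121 and 133 RPKM in the kept activated WT libraries and 166 and 244 in the WT plasmablast libraries. The groups did not overlap, and the log2 difference was 0.66 (95% interval 0.31 to 1.02, limma adjusted p = 0.00498). H2-D1, the other heavy chain, was 501 and 579 RPKM in activated and 677 and 1030 in plasmablast libraries. It rose by 0.63 (0.22 to 1.05, limma adjusted p = 0.0167), again without overlap. Tapbp was 115 and 130 RPKM in activated and 153 and 182 in plasmablast libraries. Its log2 difference was 0.44 (0.16 to 0.72, limma adjusted p = 0.015). B2m, at 1119 and 1386 RPKM in activated and 1457 and 2495 in plasmablast libraries, had a difference of nearly the same size, 0.61 (0.09 to 1.13), and missed the threshold (limma adjusted p = 0.0518). With a block for the replicate number added to this fit B2m was called (limma adjusted p = 0.0037). The second WT plasmablast library was the highest of all for B2m and, among cultured libraries, for H2-K1, H2-D1 and Tapbp, and with about 4300000 reads it was shallower than every kept library. The library labelled activated WT 3 stood above the other activated libraries for all 4 genes, at 1961 RPKM for B2m, 172 for H2-K1, 772 for H2-D1 and 151 for Tapbp. With it the activated and plasmablast WT values overlapped for B2m, H2-K1 and H2-D1. That library held about 5500000 reads, the fewest of the activated ones. In activated WT and in plasmablast WT libraries, all 4 genes were higher the fewer reads a library held. In activated KO libraries this held for B2m only, and it did not hold in plasmablast KO libraries. Whether depth had a part in these values was not tested.

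The 2 genes that fell were a catalytic subunit and the regulator. Psmb10 was 26.8 and 24.6 RPKM in kept activated WT and 21.3 and 19.3 in plasmablast WT libraries, a log2 difference of -0.33 (-0.59 to -0.07, limma adjusted p = 0.0415). Nlrc5 was 14.9 and 11.2 RPKM in activated and 10.6 and 7.25 in plasmablast libraries, a difference of -0.51 (-0.90 to -0.11, limma adjusted p = 0.0375). Neither pair of groups overlapped, and the library labelled activated WT 3, at 21.6 and 11.4 RPKM, also lay above the plasmablast values. The pump and the other inducible subunits were not called. Tap1 differed by -0.17 (-0.43 to 0.08), Tap2 by -0.20 (-0.43 to 0.03), Psmb8 by -0.05 (-0.32 to 0.22) and Psmb9 by -0.02 (-0.28 to 0.24). The calls rest on few libraries. Without plasmablast WT 2 or without activated WT 1, doubted libraries also left out, H2-K1 alone was called (0.38 and 0.59), with limma adjusted p of 0.0473 and 0.0449. After quantile normalisation, which gives genes of the same rank the same value in every library and moves the median of all genes from -0.16 to 0.01, H2-K1 (0.46) and Tapbp (0.25) were called and H2-D1 changed sign to -0.13 (limma adjusted p = 0.243). B2m and H2-D1 lie at the top of the ranks in every group, where this scaling leaves little room to differ. Whether that, or a difference in scale between libraries, had a part in the change of sign was not tested.

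In KO cells the same step had the same signs for 9 of the 10 genes and fewer calls. H2-K1 was 128 and 147 RPKM in kept activated and 177 and 207 in kept plasmablast KO libraries, and rose by 0.48 (0.12 to 0.83, limma adjusted p = 0.0382). It was the 1 of 10 members called without the doubted libraries, where 12.1% of all genes were called higher and 21.5% lower. With a block for the replicate number added to that fit, which called 3725 genes in all, B2m, H2-D1 and Tapbp were called too. Their limma adjusted p were 0.0483, 0.0386 and 0.0194. Tapbp (122 and 141, then 149 and 175 RPKM) differed by 0.29 (0.01 to 0.58, limma adjusted p = 0.103). H2-D1 (541 and 610, then 673 and 784 RPKM) differed by 0.34 (-0.08 to 0.75) and B2m (1213 and 1363, then 1573 and 1794 RPKM) by 0.38 (-0.13 to 0.90). For these 4 genes every kept plasmablast library was above every kept activated one, as in WT. The share of all genes separated in this way was not counted, here or for other groups said not to overlap. With so few libraries such separation is a description only. The doubted activated library with Thy1 at 25.7 RPKM, labelled WT 3, stood above plasmablast KO 1 for B2m (1961 against 1573 RPKM), H2-D1 (772 against 673) and Tapbp (151 against 149). It did not for H2-K1 (172 against 177 RPKM). The one labelled KO 3, with Thy1 at 0.093 RPKM, stood above plasmablast WT 1 for B2m only (1467 against 1457). Psmb10 differed by -0.24 (-0.50 to 0.02) and Nlrc5 by -0.15 (-0.55 to 0.24). With all libraries B2m differed by 0.31, H2-K1 by 0.19, Tapbp by -0.07 and H2-D1 by -0.08, and the other 6 members were below 0. The median of all genes was -0.22 in that fit. Plasmablast KO 3 held 72 estimated reads of B2m, 52 of H2-K1, 47 of H2-D1 and 2 of Psmb10, against at least 9258, 10010, 12328 and 337 in every other library. Its values of 95.6 RPKM for H2-K1 and 315 for H2-D1 were the lowest of all 23 libraries.

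Whether the step differed between KO and WT was tested as an interaction. None of the 10 was called, with 0.0% of all genes called with all libraries and 0.0304% without the doubted ones, and none had an unadjusted p under 0.05 in either fit. Without the doubted libraries the KO step minus the WT step was -0.19 for H2-K1 (-0.68 to 0.31), -0.29 for H2-D1 (-0.88 to 0.29), -0.14 for Tapbp (-0.55 to 0.26) and 0.35 for Nlrc5 (-0.21 to 0.91). With all libraries it was -0.33, -0.54, -0.41 and 0.13 in the same order. These intervals hold 0 and also hold differences as large as the WT step itself for Tapbp, H2-D1 and H2-K1.

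**Figure D3:**
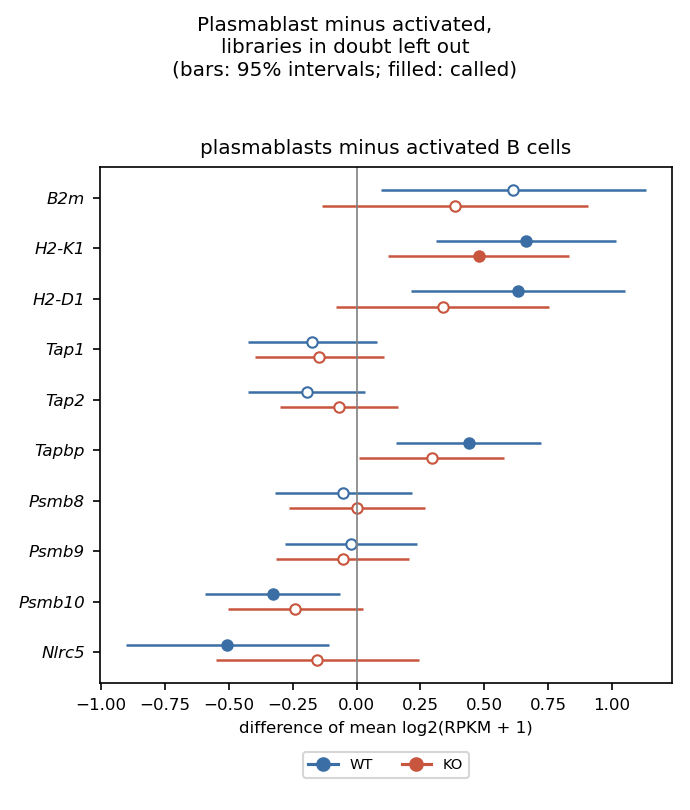
Difference of mean log2(RPKM + 1) between plasmablasts and activated B cells (horizontal axis) for each gene in WT (blue) and KO cells (red) without the doubted libraries, with 95% intervals as bars and genes called at an adjusted p under 0.05 as filled points. H2-K1 is filled in both, and H2-D1, Tapbp, Psmb10 and Nlrc5 in WT.

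Cells with a guide against Irf8 were first compared with WT in naive cells, where no member was called. Over both guides 1.88% of all genes were called with all libraries and 3.84% without the doubted one. With all 12 libraries the members' log2 differences, KO minus WT, ran from -0.18 (Psmb8) to 0.17 (H2-K1), with a median of 0.03 beside -0.02 for all genes. None had an unadjusted p under 0.05 in that comparison over both guides. B2m differed by 0.10 (-0.07 to 0.27), H2-D1 by 0.02 (-0.14 to 0.19), Tap1 by -0.02 (-0.24 to 0.20), Tap2 by 0.12 (-0.10 to 0.34) and Psmb9 by 0.04 (-0.20 to 0.28). H2-K1 was 231, 246 and 239 RPKM in the WT and 284, 246 and 268 in the KO libraries of the first arm, and 247, 223 and 196 against 286, 253 and 222 in those of the second. The groups overlapped (0.17, -0.01 to 0.35, limma adjusted p = 0.414). Without the doubted library H2-K1 differed by 0.15, Nlrc5 by 0.18, Tap2 by 0.08, B2m by 0.04, H2-D1 by 0.01, Psmb9 by -0.04, Tap1 by -0.08 and Tapbp by -0.09. Psmb8 (-0.23, -0.41 to -0.05) and Psmb10 (-0.27, -0.48 to -0.05) then had unadjusted p of 0.0167 and 0.019, and neither was called (limma adjusted p = 0.167 and 0.178).

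Psmb8 and Psmb10 had their lowest naive values in kept KO libraries of guide 1. Psmb8 was 85.7, 75.7 and 84.4 RPKM in WT and 76.6, 65.7 and 60.4 in KO libraries of that arm, the first of the KO values being the doubted library. Psmb10 was 35.3, 35.8 and 32.1 in WT and 36.5, 25.0 and 23.04 in KO libraries. With all libraries the log2 differences were -0.28 for Psmb8 (-0.56 to -0.001) and -0.31 for Psmb10 (-0.70 to 0.09). Psmb8 then had a limma unadjusted p of 0.0492 and an adjusted p of 0.315. Without the doubted library the groups did not overlap, with log2 differences of -0.37 for Psmb8 (-0.64 to -0.10, limma adjusted p = 0.131) and -0.50 for Psmb10 (-0.82 to -0.18, limma adjusted p = 0.0937). Neither was called, where guide 1 called 1.11% of all genes with all libraries and 2.4% without the doubted one. With guide 2, which called 0.0296% and 0.348%, the differences were -0.09 for Psmb8 (-0.33 to 0.15) and -0.03 for Psmb10 (-0.32 to 0.25), and the WT and KO values overlapped. The 2 guides did not differ by the test for any member, and that test called 0.0% of all genes in both fits. For Psmb10 it gave 0.47 (0.03 to 0.90, limma adjusted p = 0.462) without the doubted library. Tapbp was 114, 107 and 116 RPKM in WT and 97.3, 95.8 and 96.6 in KO libraries with guide 1, without overlap (-0.22, -0.43 to 0.00, limma adjusted p = 0.321), and 104, 110 and 108 against 127, 102 and 107 RPKM with guide 2. Nlrc5 was 12.4, 12.2 and 17.0 RPKM in WT and 15.4, 16.9 and 22.4 in KO libraries with guide 1, and 11.1, 9.90 and 18.0 against 11.7, 13.4 and 9.58 with guide 2, so its differences (0.37 and -0.13) pointed opposite ways and neither was called.

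In the cultured cells the KO and WT libraries were compared at each stage, and again none of the 10 was called. Activated cells called 0.0% of all genes with all libraries and 0.71% without the doubted ones, and plasmablasts 0.0% and 0.071%. No member had an unadjusted p under 0.05 in these 4 fits. Without the doubted libraries the activated KO minus WT differences ran from -0.28 (Nlrc5, -0.68 to 0.12) to 0.12 (H2-K1, -0.24 to 0.47), and with all libraries from -0.13 (Nlrc5) to 0.01 (Tap1). Those in plasmablasts ran from -0.20 (H2-D1, -0.62 to 0.22) to 0.13 (Tap2, -0.10 to 0.36). Over the 2 kept activated and 2 kept plasmablast KO libraries, B2m, H2-K1, H2-D1 and Tapbp overlapped WT at each stage. Psmb8 in activated cells was 92.2 and 98.3 RPKM in WT and 82.2 and 92.2 in KO libraries (-0.13, -0.39 to 0.14), and Psmb10 26.8 and 24.6 against 20.4 and 24.5 (-0.19, -0.46 to 0.07). With all libraries, plasmablast KO minus WT was -0.60 for H2-D1 (-1.56 to 0.36). In that fit 9 of 10 members were below 0, beside a median of -0.12 for all genes. Plasmablast KO 3 was the lowest library for 8 of the 10 genes.

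**Figure D4:**
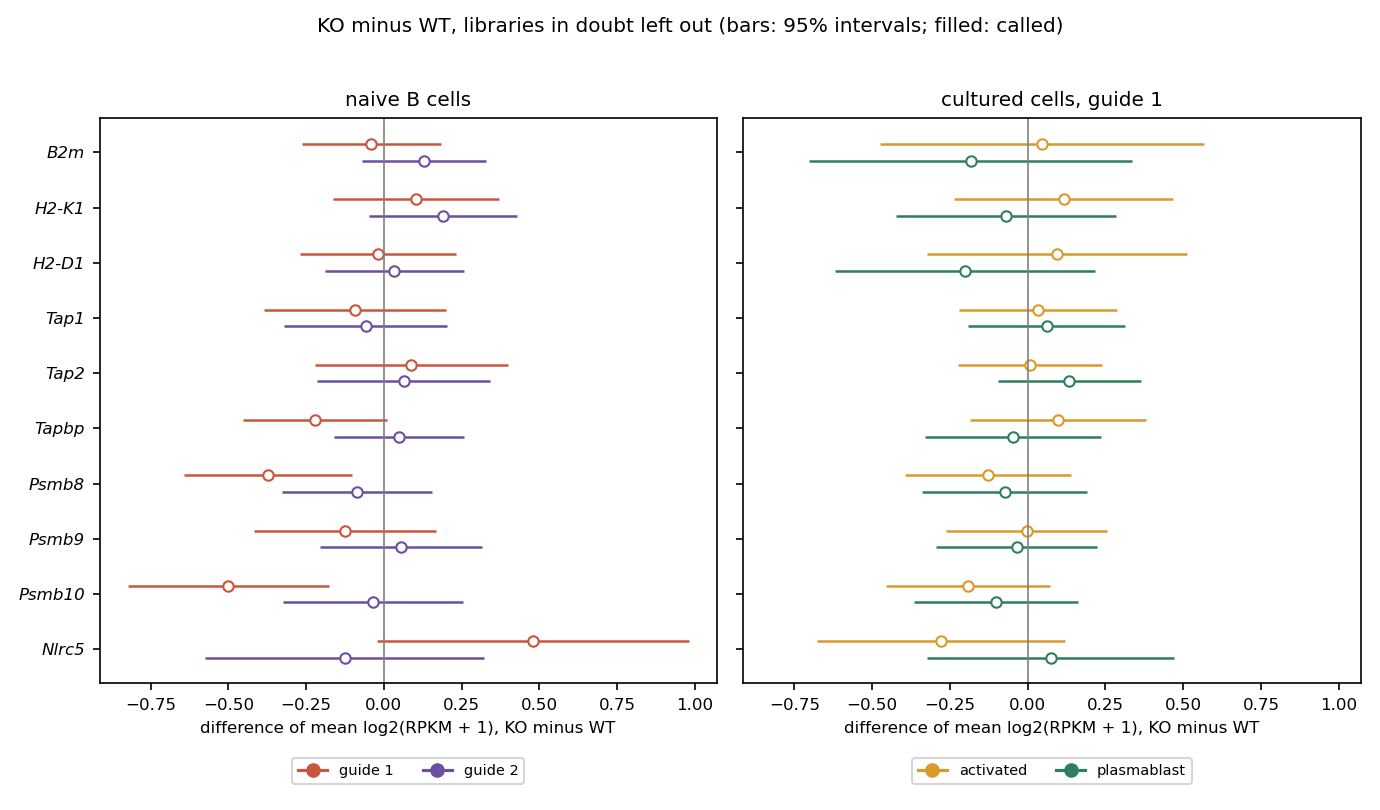
Difference of mean log2(RPKM + 1), KO minus WT, for each gene in naive cells by guide (left) and in cultured cells by stage (right), without the doubted libraries, with 95% intervals as bars. All points are open, as none was called, and the intervals of Psmb8 and Psmb10 with guide 1 lie below 0.

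The genes around the 10 members were taken from lists by role. In the step from WT activated cells to WT plasmablasts, without the doubted libraries, 8 of 16 other class I heavy chain genes tested rose and 1 fell, where 15.5% of all genes were called higher and 30.7% lower. H2-T24 rose by 1.203, H2-Q7 by 1.18, Cd1d1, which encodes a lipid-presenting molecule, by 0.75 and H2-Q9 by 0.65, while H2-K2 fell by 0.73. Reads of near-identical genes among these, such as H2-Q7 and H2-Q9, or of H2-L and H2-D1, can be split wrongly between them, so such single values are uncertain. Of 8 helpers of the endoplasmic reticulum 5 rose and none fell. Calr (calreticulin, which holds the heavy chain) rose by 0.96, Pdia3 (its partner in the loading complex) by 0.75, Tapbpl (TAPBPR, which edits the bound peptide) by 0.85, Ganab (a glucosidase that trims its sugar) by 0.89 and Hspa5 (the chaperone BiP) by 0.87. The median of this list was 0.80 and that of the heavy chains 0.28, beside -0.16 for all genes. Plasmablasts enlarge the endoplasmic reticulum, and these helpers also serve other secreted and surface proteins.

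In the same fit, with the same 15.5% of all genes called higher and 30.7% lower, 6 of 9 proteasome activator and assembly genes fell, among them Psme1, part of the interferon-inducible cap, by 0.28 and the assembly factor Psmg1 by 0.62, and Psme4 rose by 0.51. The constitutive subunits Psmb5 and Psmb6 rose by 0.30 and 0.36, and Psmb7 was not called. Of 11 other 20S core genes 2 fell (Psma6 by 0.67, Psma4 by 0.34), and 5 of 18 genes of the 19S cap fell, Psmc5 by 0.60 the most, both shares being below that of all genes. Of 5 cytosolic peptidase genes tested, Thop1 fell by 0.41.

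Of 10 genes of interferon receptors and signalling 4 fell in the WT step, near the 30.7% of all genes called lower, among them the kinase Jak1 by 1.31 and the interferon-gamma receptor chains Ifngr1 and Ifngr2 by 0.78 and 0.73, and Ifnar2 and Tyk2 rose by 0.61 and 0.46. Of 13 regulators tested 6 fell, Irf8 by 2.22, Nfkb1 by 1.49, Socs3 by 1.04, Rfx5, which binds class I and II promoters, by 1.00, Creb1 by 0.88 and Socs1 by 0.83. In KO cells, where 12.1% of all genes were called higher and 21.5% lower, 4 of 16 heavy chains rose and 1 fell (H2-K2, by 0.44), 4 of 8 helpers rose, 4 of 10 signalling genes fell and 2 rose, and 5 of 13 regulators fell. With all libraries few of these genes were called. Irf8 fell in WT cells, by 1.98 (limma adjusted p = 0.0156), and no other listed gene was called there, H2-T24 differing by 1.18 (limma adjusted p = 0.0772). In KO cells, with all libraries, H2-Q7 rose by 1.05, Irf8 fell by 1.81 and Nfkb1 fell by 1.23. In naive cells, over both guides with all libraries, Irf8 fell by 0.61 (limma adjusted p = 0.00412) and no other gene of the lists was called. Without the doubted library Ifnar1, a chain of the type I interferon receptor, also fell, by 0.44 (limma adjusted p = 0.0395), and with guide 1 alone the core subunit Psma2 fell by 0.46 (limma adjusted p = 0.0405). Cd1d1 was 0.97 higher in naive KO cells and was not called (limma adjusted p = 0.106). Comparisons among naive cells, or among cultured cells, share libraries, so their counts are not separate evidence.

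The members did not vary as 1 block across libraries. Over the 8 kept cultured libraries, Pearson correlations of log2(RPKM + 1) among B2m, H2-K1, H2-D1 and Tapbp were 0.92 to 0.99, and those of Nlrc5 with the same 4 were -0.89 to -0.91. Tap1 and Tap2 correlated at 0.86 with each other and at -0.18 to -0.47 with those 4. Over the 11 kept naive libraries the pattern was another, with 0.76 for H2-K1 and H2-D1, 0.37 to 0.42 for B2m with them, 0.87 for Psmb8 and Psmb10, 0.84 for Tapbp and Psmb8, and 0.72 for Tap1 and Psmb9, which share a promoter region (0.55 in culture). Nlrc5 and B2m stood at -0.77. The points share groups and library depth, so these are descriptions. Genes most like the mean of the 10 standardised members were Ctsz (r = 0.944), Lrp10, Nudt9, Relb and Gar1 over the 11 naive libraries, and Tpi1 (r = 0.963), Aldoa, Rpl29, Pfkl and Park7 over the 8 cultured ones.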

How the data were processed

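RNA of sorted mouse spleen B cells was amplified with SMART-seq v4 and made into libraries with Nextera XT, per the labels' protocols. The deposited values are RPKM computed by the authors, with naive and cultured libraries in separate tables. STAR and the build mm10 are named in the submitters' processing notes. Versions, the annotation and the program that counted reads are not given in the sources used here. Low RPKM values were whole multiples of 1 step per library (100.0% of the low values used lay within 0.2 reads of a whole number), from which the number of assigned reads was estimated. As the counts themselves are not analysed, no interval for counting error is given. Symbols turned into dates or missing (16 per table) were restored by gene identifier. The authors' gene lengths were within 5% of the exon union of GENCODE M21 for 12.7% of 11397 genes.

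Genes at 1 RPKM or more in at least 2 libraries of a table (10137 naive, 9986 cultured, and 10068 and 9861 without the doubted libraries) were tested as log2(RPKM + 1) with limma 3.58.1 in R 4.3.3. For each table a single model estimated every group's mean, with a two-sided moderated test with a trend, and Benjamini-Hochberg adjustment over all genes tested, with calls at an adjusted p under 0.05. Adding 1 makes differences of low genes smaller than their ratios. The tables were made separately, so tests stayed within a table. The fit was tested on simulated data first. Titles of the cultured samples carry the letter m and a number, shared across WT and KO and across both stages. What the letter stands for is not said. Whether libraries of a group came from separate animals or cultures is not stated. The p-values therefore reflect only how these samples vary, which may be technical. No column was left unmapped.

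The members and the lists were chosen with earlier results of these data known. All members are named, of each list the called genes or, where none was called, the one with the largest difference, of which those printed are a part, and the 5 genes in each table most correlated with the mean of the members. Alternatives were a pseudocount of 0.1, no filter, quantile normalisation, a fit of only the groups compared, a replicate block, and leaving out the doubted libraries or each library in turn. Combinations with the doubted libraries left out were added after seeing the data. A gene of the signalling list is not reported here by name.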

Additional observations from a re-analysis of the deposited data

How the results depend on the processing

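None of the 10 genes was called in any comparison with all libraries, and this held with a pseudocount of 0.1, without the filter, after quantile normalisation and in fits of only the groups compared. Leaving out the 4 doubted libraries gave 5 calls in the step from activated cells to plasmablasts in WT and 1 in KO cells, and 0 in the other comparisons. With those libraries out, WT calls became 2 after quantile normalisation, 6 with a pseudocount of 0.1 and 6 with a replicate block, and KO calls 1 with that pseudocount and 4 with the block. Under that block H2-D1 (0.34, limma adjusted p = 0.0386), Tapbp (0.29, limma adjusted p = 0.0194), B2m (limma adjusted p = 0.0483) and H2-K1 (limma adjusted p = 0.00612) rose in KO cells, where all libraries gave -0.08 and -0.07 for the first 2, and B2m rose in WT cells (limma adjusted p = 0.0037). Leaving out 1 library at a time, with or without the doubted ones, gave 0 to 6 calls in WT and 0 to 1 in KO cells. H2-K1 was called in WT cells when only plasmablast KO 3 was left out. Of 2690 member differences under alternatives 2628 kept their side of the threshold, 60 passed it newly and 2 reversed. As no member was called with all libraries, no call could be lost. All changes were in the WT and KO steps from activated cells to plasmablasts, so the pooled count does not measure how stable those steps are. Counts over all genes moved more. The WT step called 176 genes with all libraries and 3132 in a fit of only its groups, the KO step 344 and 15, and over the left-out libraries they ranged from 0 to 4629 and from 22 to 3760. Naive calls over both guides (191) ranged from 73 to 477, those with guide 1 (113) from 0 to 371 and those with guide 2 (3) from 0 to 50. Fits of only the groups compared called 0 genes with guide 1 and 55 with guide 2, and the replicate block with the doubted libraries out called 4987 in the WT step and 3725 in the KO step. Same letters or numbers gave correlations of -0.11 to 0.18 in naive and -0.24 to 0.25 in cultured libraries, beside -0.22 to 0.2 and -0.25 to 0.24 for other pairs. Without the doubted libraries they were -0.2 to 0.18 in naive libraries, beside -0.22 to 0.2 for other pairs. In cultured ones they were then -0.04 to 0.33 (10 of 12 over 0.1), beside -0.33 to 0.04 for other pairs. With 2 kept libraries in each cultured group these last ranges mirror each other. In the sample titles these numbers, each after the letter m, are shared across WT and KO and across both stages. They may therefore pair the cultured samples, and the main fits did not pair them. The replicate block with all libraries left 0 calls. Depth limits plasmablast KO 3, where Psmb10 rests on 2 estimated reads.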
